A study of Homo sapiens with 4 samples.

Results

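Oxidative phosphorylation runs on 5 protein complexes of the inner mitochondrial membrane. Complexes I to IV pass electrons from NADH and succinate to oxygen, all of them except complex II pump protons, and complex V, the ATP synthase, uses the proton gradient to make ATP. Most subunits are encoded in the nucleus and imported, while a small set is transcribed from mitochondrial DNA, so the RNA of both genomes has to supply the same complexes. The genes described here are the nuclear ones, chosen by name alone: protein-coding genes whose names begin with NDUFA, NDUFB, NDUFC, NDUFS or NDUFV (complex I), SDHA to SDHD (complex II), UQCR (complex III), COX4 to COX8 (complex IV) or ATP5 (complex V), without the assembly factors NDUFAF and SDHAF and without ATP5SL. The rule found 88 of 57820 genes: 40 in complex I, 4 in complex II, 9 in complex III, 17 in complex IV and 18 in complex V. Of them 79 had enough fragments to be tested, among 16468 tested genes in all.

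RNA was sequenced from SY5Y cells, a line grown from human neuroblastoma that the labels give as MYCN wild type, after treatment with SGSS05-NS or with the solvent DMSO. Each condition had 2 libraries, named replicate 1 and replicate 2, and all 4 libraries came from the same line. The labels give 3 μM and 12 h, and the study, which writes the compound as SGSS05-NS3 and describes it as a covalent inhibitor of the histone methyltransferase SETD8, states a different dose for this line in its methods and the labelled dose in its legends, so the dose is not settled here. The comparison asks how transcript levels differed between inhibitor-treated and solvent-treated cells. A single cell line stands behind every value, so the spread between libraries is the spread within this line.

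Gene totals were between 21463105 and 25350204 fragments per library, and the median tested member had 74.2 CPM in DMSO, where CPM is a count scaled to library size with TMM. Of 11 noradrenergic neuroblastoma markers, 10 were tested and TH had at most 2 fragments in a library. Of 5 fibroblast markers DCN and PRRX1 were at 0, and the summed CPM, nearly all of it PDGFRB, was 72.7 and 78.0 with DMSO and 53.7 and 45.8 with SGSS05-NS. The 2 epithelial markers summed to 1.91 and 2.06 CPM with DMSO and 2.43 and 3.61 CPM with SGSS05-NS, and the 3 blood markers had 1 fragment in all. The summed CPM of the neuroblastoma markers was 4255 and 4595 with DMSO and 2650 and 2602 with SGSS05-NS. The share of all fragments that matched no annotated exon on the counted strand was 12.4% and 12.3% with DMSO and 16.1% and 15.3% with SGSS05-NS. Whether either of these shifts contributed to the values below was not tested, and in bulk RNA a change in the cells present and a change in RNA per cell cannot be told apart.

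The nuclear respiratory genes were lower with SGSS05-NS by a small amount that most of them shared. How many single genes passed the study's strict threshold depended on the test. At an adjusted p-value under 0.001 (quasi-likelihood test of edgeR, adjusted after Benjamini and Hochberg over all tested genes), 4 of the 79 tested members fell and 0 rose. That is 5.06% of the tested members, set beside 8.14% of all genes that fell and 6.37% that rose at this threshold, or 14.5% in either direction. With this test the share past the strict threshold was therefore not above the background. The direction was shared more widely than the calls: 71 of 79 members had a log2 fold change below 0, where 49.0% of all genes did. The median log2 fold change was -0.205 over the members and 0.0116 over all tested genes. At a looser threshold of 0.05, 31 members were lower (39.2%) and 3 were higher (3.80%), beside 23.7% and 22.6% of all genes. At 0.01 the count was 18 lower and 0 higher of the 79, beside 15.9% of all genes lower. With edgeR's likelihood ratio test, the one named in the study's methods, 15 of the 79 members were lower at 0.001, beside 13.8% of all genes. With that test the share of members was above the background.

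**Figure D1:**
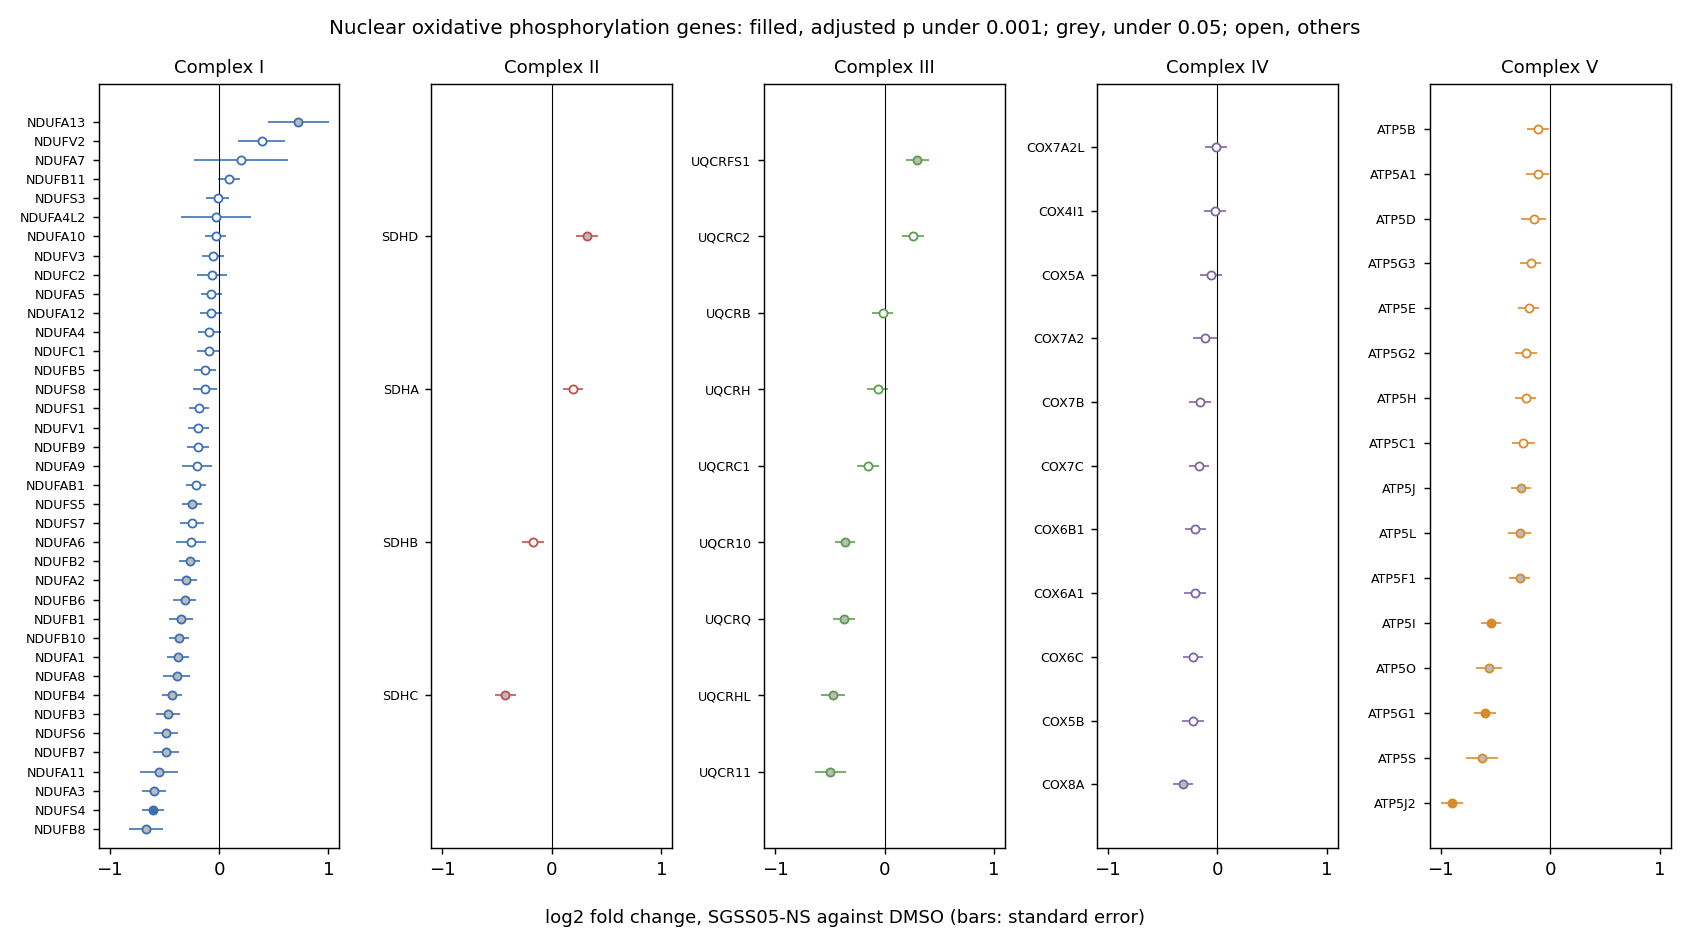
Log2 fold change of SGSS05-NS against DMSO for 78 of the 79 tested members, one panel per complex, with bars for the standard error. All 16 tested complex V genes and all 11 tested complex IV genes lie below 0, while complexes I, II and III hold genes on both sides, and the 4 filled points are the genes past the 0.001 threshold.

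In 53 members both SGSS05-NS libraries lay below both DMSO libraries, in 6 both lay above, and in 20 the groups overlapped. Of all tested genes, 36.9% were separated downwards and 37.8% upwards. Summed over the 88 members, the level was 8672 and 8206 CPM in the DMSO libraries and 7136 and 7853 CPM in the SGSS05-NS libraries. The mean sum in treated cells, 7495 ± 508 CPM (SD, n = 2), was 0.888 of that in control cells, 8439 ± 330 CPM (SD, n = 2).

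Of the 4 members that fell at 0.001, 3 encode membrane subunits of the ATP synthase. ATP5J2, which encodes subunit f of the membrane part (ENSG00000241468.3, GRCh37 chromosome 7 from 99046098 to 99063809, minus strand), measured 68.6 and 63.9 CPM with DMSO and 33.3 and 37.9 CPM with SGSS05-NS. Both treated libraries were far below both controls, and the gene had the lowest log2 fold change of all tested members at -0.90 (standard error 0.10, edgeR adjusted p = 3.59e-05), a fall of 46.3%. ATP5I, which encodes the neighbouring subunit e (ENSG00000169020.5, chromosome 4 from 666225 to 668119, minus strand), measured 90.1 and 87.7 CPM with DMSO and 61.1 and 61.2 CPM with SGSS05-NS. The treated libraries were nearly equal and well below both controls, with a log2 fold change of -0.54 (standard error 0.09, edgeR adjusted p = 0.000521). ATP5G1, one of 3 genes for the subunit c that forms the rotating membrane ring (ENSG00000159199.9, chromosome 17 from 46970127 to 46973233, plus strand), measured 73.1 and 66.1 CPM with DMSO and 44.3 and 48.0 CPM with SGSS05-NS. The groups did not overlap and the log2 fold change was -0.59 (standard error 0.10, edgeR adjusted p = 0.000509).

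The fourth gene that fell belongs to complex I, where it was 1 of 39 tested genes (2.56%, beside 8.14% of all genes). NDUFS4 encodes an accessory subunit of the arm that takes electrons from NADH and is known as a gene of inherited complex I deficiency (ENSG00000164258.7, chromosome 5 from 52856463 to 52979168, plus strand). It measured 46.2 and 45.3 CPM with DMSO and 29.6 and 30.7 CPM with SGSS05-NS. Both conditions were tight and far apart, with a log2 fold change of -0.60 (standard error 0.10, edgeR adjusted p = 0.000451). ATP5G1 and ATP5I lost the 0.001 threshold without DMSO replicate 1 (adjusted p = 0.00146 and 0.00113), and both, with NDUFS4, lost it when libraries were scaled by size only, whereas ATP5J2 kept it in each alternative fit. ATP5J2 overlaps the readthrough gene ATP5J2-PTCD1 and PTCD1 on the same strand, and it has 6 annotated pseudogenes, so that fragments shared with them are not in its counts. Counted without regard to strand, ATP5I had a log2 fold change of -1.19.

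Promoter sequence is shown for genes that fell and, as a contrast, for SDHD and UQCRFS1, 2 of the 3 members higher at 0.05, because the members moved together and respiratory genes are known for shared promoter elements bound by NRF1, GABPA and YY1. These genes were picked after their values were seen, and ATP5J2 had no entry. Windows run from 250 bases before to 30 bases after the RefSeq transcript start on GRCh38.p14, which is not the build of the counts, and are printed 5′ to 3′ on the gene's strand. Capitals mark the letters GCGCATGC or GCATGCGC for NRF1, CCGGAAG or CTTCCGG for GABPA, AAGATGGCG or CGCCATCTT for YY1 and CCAAT or ATTGG for NFY, searched on both strands.
ATP5I, chr4:674247-674526, minus strand: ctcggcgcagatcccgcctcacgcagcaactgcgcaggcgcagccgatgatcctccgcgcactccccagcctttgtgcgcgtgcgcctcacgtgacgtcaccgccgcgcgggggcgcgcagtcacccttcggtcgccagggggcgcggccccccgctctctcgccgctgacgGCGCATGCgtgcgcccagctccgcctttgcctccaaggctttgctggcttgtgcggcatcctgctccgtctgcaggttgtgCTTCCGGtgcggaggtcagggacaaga
ATP5G1, chr17:48892537-48892816, plus strand: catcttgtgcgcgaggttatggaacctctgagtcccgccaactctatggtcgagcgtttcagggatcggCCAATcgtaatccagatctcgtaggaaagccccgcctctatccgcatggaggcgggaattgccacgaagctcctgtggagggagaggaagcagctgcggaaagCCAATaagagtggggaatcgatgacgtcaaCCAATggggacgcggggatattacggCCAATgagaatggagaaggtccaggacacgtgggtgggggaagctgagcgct
NDUFS4, chr5:53560389-53560668, plus strand: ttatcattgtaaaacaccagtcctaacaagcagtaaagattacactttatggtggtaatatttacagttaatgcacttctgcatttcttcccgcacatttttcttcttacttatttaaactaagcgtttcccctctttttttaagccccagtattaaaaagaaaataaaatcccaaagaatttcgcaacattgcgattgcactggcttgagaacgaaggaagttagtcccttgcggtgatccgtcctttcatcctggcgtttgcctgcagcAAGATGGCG
SDHD, chr11:112086623-112086902, plus strand: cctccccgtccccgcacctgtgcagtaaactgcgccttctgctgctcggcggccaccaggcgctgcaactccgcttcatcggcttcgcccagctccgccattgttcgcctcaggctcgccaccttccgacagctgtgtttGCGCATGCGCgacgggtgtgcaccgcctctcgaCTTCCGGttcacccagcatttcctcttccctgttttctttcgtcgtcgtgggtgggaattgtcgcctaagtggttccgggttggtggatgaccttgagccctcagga
UQCRFS1, chr19:29213122-29213401, minus strand: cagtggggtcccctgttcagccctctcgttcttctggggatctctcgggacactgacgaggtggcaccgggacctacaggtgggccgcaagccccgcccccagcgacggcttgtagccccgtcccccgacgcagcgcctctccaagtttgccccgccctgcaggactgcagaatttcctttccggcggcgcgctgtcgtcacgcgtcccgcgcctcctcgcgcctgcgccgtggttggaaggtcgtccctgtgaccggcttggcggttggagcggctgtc
The ATP5I window holds the NRF1 letters and the GABPA letters once each. The ATP5G1 window holds CCAAT 4 times and none of the other motifs. In NDUFS4 the YY1 letters end the window. In SDHD the NRF1 letters lie on both strands over one palindromic stretch, followed by the GABPA letters. The UQCRFS1 window holds 0 of these motifs.

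Across the 69 members with a promoter entry, the NRF1 letters were found in 13 (18.8%), against 4.15% of 15843 promoters of the same length. The GABPA letters were in 19 members (27.5%, against 13.9%), the YY1 letters in 6 (8.70%, against 2.11%) and the NFY letters in 22 (31.9%, against 35.8%). These matches are descriptions of letters and not of binding. The medians with and without each motif lay close together. The median log2 fold change was -0.247 for the 13 tested members with the NRF1 letters and -0.189 for the 51 without, and -0.223 for the 19 with the GABPA letters and -0.198 for the 45 without. For YY1 the medians were -0.222 and -0.208, and for NFY -0.201 and -0.216. No test was made of these differences.

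By role within the ATP synthase, every part had log2 fold changes below 0. The counts by part below stand beside 23.7% of all genes lower at 0.05, and each part holds few genes. All 3 genes for subunits e, f and g (ATP5I, ATP5J2 and ATP5L) were lower at 0.05, with a median log2 fold change of -0.541. Of the 4 peripheral stalk genes, which hold the catalytic head still, 3 were lower at 0.05. ATP5O, the stalk subunit that grips the head, measured 34.4 and 37.6 CPM with DMSO and 22.1 and 26.7 CPM with SGSS05-NS, a log2 fold change of -0.56 (standard error 0.12, edgeR adjusted p = 0.00261). ATP5J (-0.26) and ATP5F1 (-0.28) were smaller, and ATP5H had -0.22 and an adjusted p of 0.0794. Of the 5 genes for the catalytic head and central stalk, 0 passed 0.05. Their log2 fold changes ran from -0.25 for ATP5C1 to -0.11 for ATP5B. The differences between these parts were not tested. ATP5B, which encodes the catalytic beta subunit, measured 978 and 867 CPM with DMSO and 837 and 874 CPM with SGSS05-NS, so that the groups overlapped.

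The 3 subunit c genes make the same mature protein with different import signals, and they did not have the same values. ATP5G1 fell as given above, while ATP5G2 measured 230 and 210 CPM with DMSO and 177 and 202 CPM with SGSS05-NS (log2 fold change -0.22, standard error 0.10, edgeR adjusted p = 0.0993). ATP5G3 measured 135 and 122 CPM against 111 and 117 CPM (log2 fold change -0.17, edgeR adjusted p = 0.156). The treated libraries lay below both controls for all 3 genes. Summed over the ring genes the DMSO libraries had 418 ± 28.3 CPM and the treated libraries 349 ± 25.1 CPM (mean ± SD, n = 2 each). ATP5S, which carries the ATP5 name but whose current symbol is DMAC2L, measured 12.8 and 12.7 CPM with DMSO and 7.53 and 8.97 CPM with SGSS05-NS, a log2 fold change of -0.62 (standard error 0.15, edgeR adjusted p = 0.00495).

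In complex I, the NADH dehydrogenase and entry point of most electrons, 17 of 39 tested genes were lower and 1 was higher at 0.05, with a median log2 fold change of -0.211. These are 43.6% and 2.56% of the complex, beside 23.7% of all genes lower and 22.6% higher. Accessory subunits, which surround the catalytic centre and support its assembly and stability, made up most of these, with 16 of 30 (53.3%) lower at 0.05. NDUFA3, an accessory subunit of the membrane arm, measured 32.5 and 29.8 CPM with DMSO and 20.2 and 21.2 CPM with SGSS05-NS and just missed the strict threshold (log2 fold change -0.59, standard error 0.11, edgeR adjusted p = 0.00117). NDUFB4, also of the membrane arm, measured 82.2 and 75.6 CPM against 57.8 and 59.4 CPM (log2 fold change -0.43, edgeR adjusted p = 0.00305). Both genes were separated, and both have pseudogenes, 5 for NDUFA3 and 12 for NDUFB4.

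The core subunits carry the redox centres. The largest of them, NDUFS1, which holds several iron-sulfur clusters, measured 176 and 176 CPM against 156 and 155 CPM, a log2 fold change of -0.18 with an adjusted p of 0.118. NDUFS3 stood at -0.01, with an interval of 2 standard errors from -0.22 to 0.20. NDUFV2, with 72 to 120 fragments per library, had a log2 fold change of 0.39 (edgeR adjusted p = 0.155). The lowest log2 fold change in the complex, -0.67 for the membrane arm subunit NDUFB8, came from 257 and 236 fragments with DMSO and 135 and 158 with SGSS05-NS and had a standard error of 0.15 (edgeR adjusted p = 0.00414).

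The single complex I gene higher at 0.05, NDUFA13, had 32 and 37 fragments with DMSO and 43 and 65 with SGSS05-NS (edgeR adjusted p = 0.0498). These low counts belong to an abundant protein whose gene shares its strand with YJEFN3 and a readthrough gene, and STAR does not count a fragment that fits more than 1 gene. NDUFA7, with 8 to 15 fragments per library, is overlapped in the same way. Neither count can stand for the level of the transcript. NDUFA4 keeps a complex I name, although it is now placed in complex IV. It measured 236 and 222 CPM with DMSO and 196 and 235 CPM with SGSS05-NS, which overlapped, while its paralog NDUFA4L2 had only 26 to 51 fragments per library, with a log2 fold change of -0.03 and an interval from -0.67 to 0.61.

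Complex III passes electrons from ubiquinol to cytochrome c. Most of its lower values were among the small subunits. All 6 tested small subunits had log2 fold changes below 0, where 49.0% of all genes did. Of them 4 were lower at 0.05 (66.7%, beside 23.7% of all genes). Both counts include UQCRHL, the copy gene described below. UQCR10 measured 66.0 and 64.7 CPM with DMSO and 50.7 and 51.2 CPM with SGSS05-NS (log2 fold change -0.36, edgeR adjusted p = 0.00740). UQCRQ measured 159 and 150 CPM against 111 and 128 CPM (log2 fold change -0.37, edgeR adjusted p = 0.0106). UQCR11 stood at -0.50 on 187 to 294 fragments per library. UQCRHL, an intronless copy of the hinge subunit gene UQCRH, measured 34.1 and 36.1 CPM against 24.1 and 26.6 CPM (log2 fold change -0.47, edgeR adjusted p = 0.00421). UQCRH itself, at 385 and 361 CPM with DMSO and 346 and 368 CPM with SGSS05-NS, overlapped, and reads of these near-identical genes can be exchanged between them.

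The larger proteins of complex III took both directions. UQCRFS1, the Rieske iron-sulfur protein, measured 59.9 and 60.9 CPM with DMSO and 68.3 and 80.3 CPM with SGSS05-NS, with both treated libraries above both controls (log2 fold change 0.30, standard error 0.10, edgeR adjusted p = 0.0307). The core protein gene UQCRC2 measured 148 and 134 CPM against 159 and 180 CPM and lay at the looser threshold (log2 fold change 0.26, edgeR adjusted p = 0.0504). Its partner UQCRC1 had a log2 fold change of -0.15 (edgeR adjusted p = 0.237). The median of complex III was -0.149.

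Complex II, succinate dehydrogenase, belongs to both the citrate cycle and the respiratory chain and has all of its subunits encoded in the nucleus. Its 4 genes took both directions, with a median log2 fold change of 0.0115 and summed levels of 227 and 217 CPM with DMSO and 221 and 224 CPM with SGSS05-NS. The membrane anchors SDHC and SDHD, which together bind heme and ubiquinone, were on opposite sides. SDHC measured 47.0 and 49.1 CPM with DMSO and 34.5 and 37.2 CPM with SGSS05-NS (log2 fold change -0.42, standard error 0.10, edgeR adjusted p = 0.00445). SDHD measured 32.3 and 31.0 CPM against 37.6 and 41.4 CPM (log2 fold change 0.32, standard error 0.10, edgeR adjusted p = 0.0241). The groups were separated in both genes, and together the 2 anchors had 79.7 ± 0.576 CPM in control and 75.4 ± 4.55 CPM in treated libraries (mean ± SD, n = 2 each). The catalytic flavoprotein SDHA, at 83.5 and 79.2 CPM against 94.8 and 91.4 CPM (log2 fold change 0.19, edgeR adjusted p = 0.101), and the iron-sulfur subunit SDHB, at 64.4 and 57.3 CPM against 54.3 and 53.8 CPM (-0.17, edgeR adjusted p = 0.170), missed both thresholds. SDHA, SDHC and SDHD each have 4 to 6 pseudogenes.

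Complex IV, cytochrome c oxidase, has its catalytic centre encoded by mitochondrial DNA, and its nuclear genes supply the surrounding subunits. All 11 tested genes had log2 fold changes below 0, from -0.31 to -0.01, with a median of -0.168, where 49.0% of all genes were below 0. At 0.05, 1 was lower (9.09%, beside 23.7% of all genes). That gene was COX8A, a small membrane subunit, at 117 and 109 CPM with DMSO and 90.0 and 91.6 CPM with SGSS05-NS (log2 fold change -0.31, standard error 0.09, edgeR adjusted p = 0.0158). COX6C (-0.22), COX5B (-0.22), COX6B1 (-0.20) and COX6A1 (-0.21) followed, with adjusted p-values between 0.0646 and 0.114. COX4I1, the regulatory subunit, measured 253 and 238 CPM with DMSO and 225 and 259 CPM with SGSS05-NS, and its log2 fold change of -0.02 had an interval from -0.22 to 0.18. COX7A2 (-0.11) and COX7C (-0.17) lay between.

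Several complex IV subunits have isoforms that are known from muscle, testis or other tissues, and the counts in these cells came from the common forms. COX6A2 and COX7A1, the heart and muscle forms, and COX7B2 had 0 fragments in all 4 libraries, where a count of 0 allows up to 0.135 CPM (3 fragments, counting error only). COX6B2 had 0, 0, 2 and 1 fragments and COX8C 2, 1, 3 and 3 in DMSO replicates 1 and 2 and SGSS05-NS replicates 1 and 2. COX4I2, the hypoxia-linked form of COX4I1, had 10, 6, 11 and 4 fragments in the same order. With the readthrough genes NDUFC2-KCTD14 (0 in every library) and ATP5J2-PTCD1 (1 to 5) and the copy ATP5L2 (2 to 6), these are the 9 members that were not tested, and none of them reached a level at which a difference was detectable.

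Compared per length, as RPKM (CPM divided by the length of the annotated main transcript in kilobases), the most abundant member was UQCRH, with a mean of 695 with DMSO and 665 with SGSS05-NS. ATP5B followed with 524 and 486, then NDUFS5, an accessory complex I subunit, with 452 and 382. COX4I1 and COX7C led complex IV with 322 and 326 in DMSO. SDHB led complex II with 59.9 in DMSO, the lowest leading value of the 5 complexes. These neighbours in the order have few replicates, and lengths of main transcripts with long annotated ends, such as that of NDUFS1 with 11660 bases, lower the RPKM of some members.

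**Figure D2:**
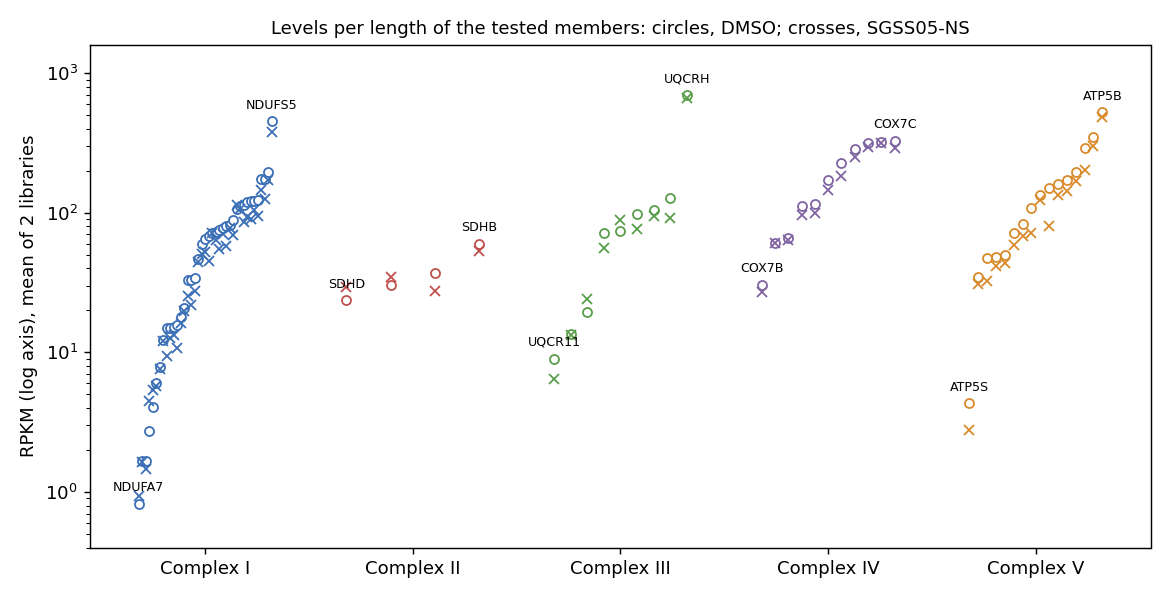
Mean RPKM of the 79 tested members on a log axis, by complex, with circles for DMSO and crosses for SGSS05-NS, each a mean of 2 libraries. The highest points are UQCRH, ATP5B and NDUFS5, complex II lies under 60 RPKM in DMSO, and most crosses sit slightly below their circles.

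The size of the shift depended on which treated library was read. Relative to the DMSO mean of each gene, the median over the tested members was 0.0373 and -0.0373 in the DMSO libraries, -0.284 in SGSS05-NS replicate 1 and -0.134 in SGSS05-NS replicate 2. Over all genes the corresponding medians of the treated libraries were 0.00981 and 0.0132. SGSS05-NS replicate 1 was below replicate 2 in 68 of 79 members (86.1%, against 52.5% of all genes), and DMSO replicate 1 was below replicate 2 in 14 (17.7%, against 49.9%). Without SGSS05-NS replicate 1 the members' median log2 fold change was -0.142, and without SGSS05-NS replicate 2 it was -0.289. SGSS05-NS replicate 1 also had the smallest gene total and, at 16.1%, the highest share of fragments on no exon of the counted strand. The part of these in the shift was not tested.

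**Figure D3:**
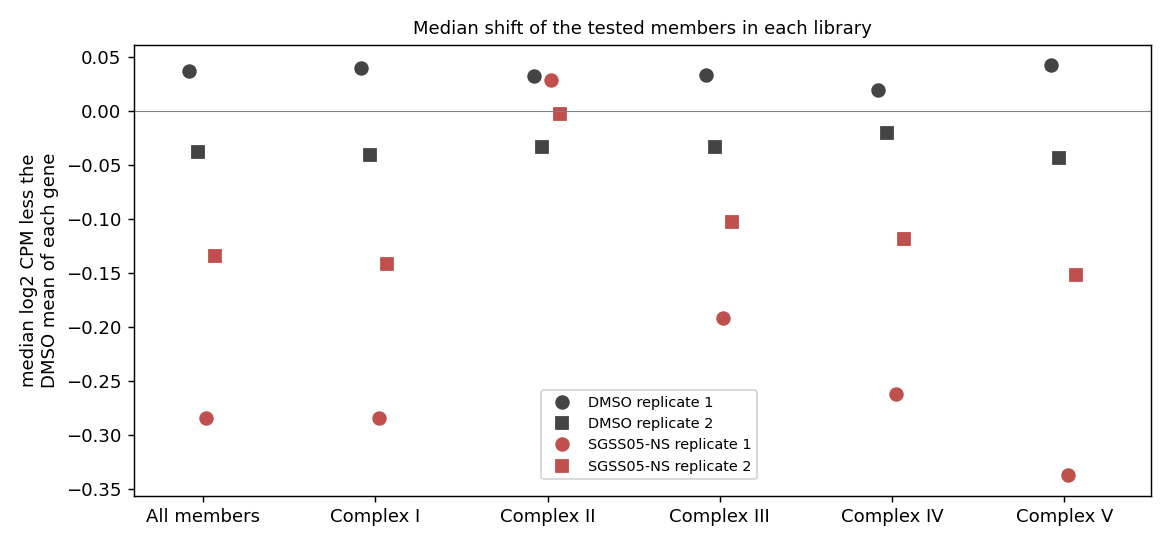
Median over tested members of log2 CPM less the DMSO mean of each gene, for each of the 4 libraries, for all members and by complex. Both treated libraries lie below both controls for all members and for complexes I, III, IV and V, with SGSS05-NS replicate 1 the lower, while in complex II the 4 libraries lie between -0.0332 and 0.0332.

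Respiratory subunits are short proteins with many processed copies in the genome, and fragments that fit several places were not counted. Of the 88 members, 49 have an annotated pseudogene and 36 share their strand with an overlapping gene. Both kinds of member had values on the same side: the median log2 fold change was -0.205 in the 49 tested members with a pseudogene and -0.218 in the 30 without. Neither a pseudogene nor a same-strand overlap was present in 14 tested members, a selection made after the data were seen. Pseudogenes were matched by symbol, so UQCRHL, which can exchange reads with UQCRH, is among the 14. All 14 log2 fold changes were below 0, where 49.0% of all genes were, and the median was -0.336. At 0.001, 1 of them fell (7.14%, beside 8.14% of all genes), and at 0.05, 8 were lower (57.1%, beside 23.7%).

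Coding sequence was 423 bases at the median of the tested members and 1434 bases at the median of 12567 tested protein-coding genes. Across the 79 members the log2 fold change was lower in shorter genes, with Spearman's rho of 0.25 against coding length, while across the protein-coding genes rho was -0.0876. Of the 27 members of up to 327 coding bases, 16 (59.3%) were lower at 0.05, against 8 of the 26 members from 333 to 516 bases (30.8%) and 7 of the 26 from 516 to 2181 bases (26.9%). The shares of the longer members were near the 23.7% of all genes. Their medians still lay below 0, at -0.193 in the middle group and -0.176 in the longest, against 0.0116 over all genes. Only 2 and 1 of these members were higher at 0.05, where 22.6% of all genes were. Against the span of the gene on the chromosome rho was 0.214 in the members and -0.419 in protein-coding genes. The points share their libraries and no test was made.

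Of the 13 subunits encoded by mitochondrial DNA, 5 were higher and 0 lower at 0.001, beside 6.37% of all genes higher and 8.14% lower. Log2 fold changes were above 0 in 10 and below 0 in 3 (23.1%, against 49.0% of all genes), and the median was 0.506. MT-ND1 (0.72), MT-ND4 (0.67) and MT-ND5 (0.67), all subunits of complex I, had the smallest p-values, and complex IV transcripts MT-CO2 (0.03) and MT-CO3 (0.01) were close to 0. The 3 below 0 were MT-ATP8 (-0.65, edgeR adjusted p = 0.0692), MT-ND6 (-0.52, edgeR adjusted p = 0.260) and MT-ND3 (-0.29, edgeR adjusted p = 0.0818). In MT-ATP8 both treated libraries lay below both controls, on only 30 to 69 fragments per library. MT-ATP8 overlaps MT-ATP6 on the same strand, and fragments that fit both genes were not counted. MT-ND6 had 42 to 145 fragments per library. With MT-ATP6 at 0.52 and MT-ATP8 as its only other gene, the mitochondrial median of complex V was -0.0666. The difference between the nuclear and mitochondrial lists was not tested as such.

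**Figure D4:**
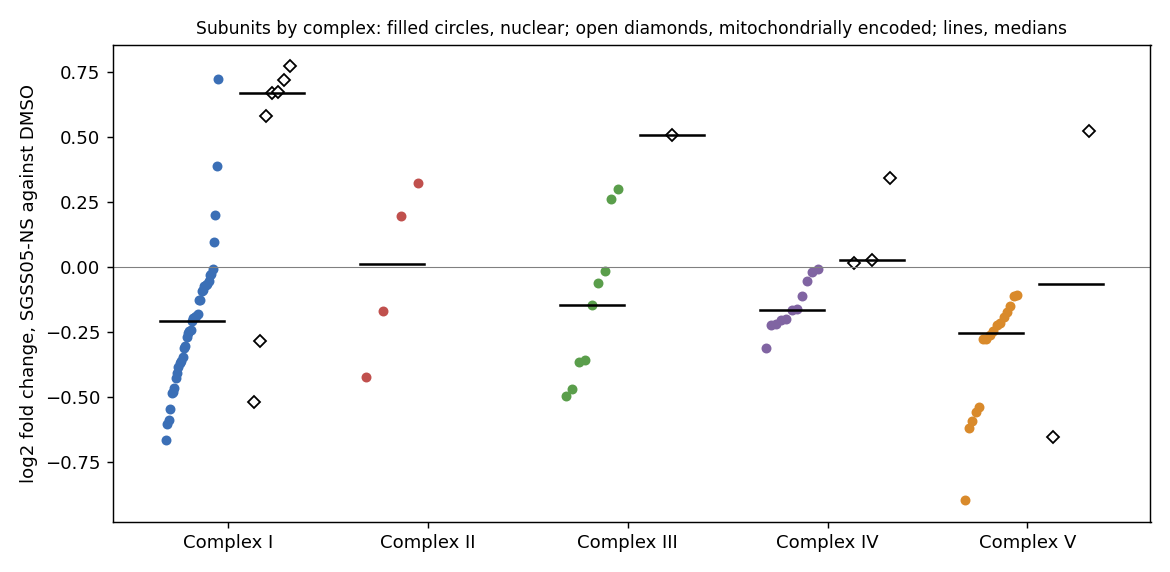
Log2 fold changes of the tested nuclear subunits (filled circles) and of the mitochondrially encoded subunits (open diamonds) by complex, with lines at the medians. In complexes I, III and IV the mitochondrial medians lie above and the nuclear medians below 0. The mitochondrial value is a single gene, MT-CYB, in complex III and close to 0, at 0.0264, in complex IV. In complex V both medians lie below 0, and complex II has no mitochondrially encoded subunit.

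Genes that serve the complexes without belonging to them by name were taken as lists of their own. Of 44 assembly factors found, 4 (9.09%) fell and 1 rose at 0.001, beside 8.14% of all genes that fell, so the share was near the background. At 0.05, 16 (36.4%) were lower and 6 (13.6%) higher, beside 23.7% and 22.6% of all genes, and the median log2 fold change was -0.106. The largest falls were in NUBPL, which delivers iron-sulfur clusters to complex I (14.2 and 13.7 CPM with DMSO, 5.63 and 6.89 CPM with SGSS05-NS, log2 fold change -1.16, edgeR adjusted p = 0.000105), and in LYRM7, which acts on the Rieske protein during assembly of complex III (54.4 and 67.0 CPM against 28.4 and 29.97 CPM, -1.06, edgeR adjusted p = 2.57e-05). COA4, a complex IV assembly factor, had a log2 fold change of -0.53 and lost the 0.001 threshold with library size only (adjusted p = 0.00193), with upper-quartile scaling (0.00117) and without DMSO replicate 1 (0.00229). TIMMDC1, a complex I assembly factor, fell by 0.54 on the log2 scale (edgeR adjusted p = 0.000783), and 2 assembly factors in all were lower with library size only, with upper-quartile scaling and without DMSO replicate 1. The one factor that rose was COX19, which serves complex IV (log2 fold change 0.69, edgeR adjusted p = 0.000852), and 0 assembly factors were higher with library size only, with unstranded counts, without DMSO replicate 1 or without SGSS05-NS replicate 1. Of the 5 partners outside the name rule, among them CYCS (0.19), USMG5 (-0.21) and C14orf2 (-0.24), 0 passed either threshold, and their median was -0.018.

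Among 14 tested regulators of mitochondrial biogenesis 1 gene rose and 0 fell at 0.001, beside 6.37% of all genes that rose and 8.14% that fell. The median log2 fold change was 0.0235. GABPB2, which encodes a partner of GABPA, rose from 8.45 and 9.12 CPM to 17.7 and 21.1 CPM (log2 fold change 1.15, edgeR adjusted p = 5.96e-05). GABPB1, the more abundant partner gene, went the other way. It measured 51.7 and 52.9 CPM with DMSO and 41.05 and 45.6 CPM with SGSS05-NS (log2 fold change -0.27, edgeR adjusted p = 0.0403). NRF1 measured 29.5 and 30.1 CPM with DMSO and 20.5 and 22.02 CPM with SGSS05-NS (log2 fold change -0.49, edgeR adjusted p = 0.00362), and GABPA 57.6 and 63.1 CPM against 45.2 and 46.3 CPM (-0.40, edgeR adjusted p = 0.00547). Both factors were separated downwards and missed the strict threshold. PPARGC1A, the coactivator known from muscle and brown fat, had 0 fragments with DMSO and 4 in each SGSS05-NS library.

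Of the 16 genes of pyruvate dehydrogenase and the citrate cycle, which supply the NADH and succinate, 2 (12.5%) fell and 0 rose at 0.001, beside 8.14% of all genes that fell, with a median of -0.149. OGDH, the first component of the 2-oxoglutarate dehydrogenase complex, measured 91.5 and 92.7 CPM with DMSO and 57.5 and 51.7 CPM with SGSS05-NS (log2 fold change -0.75, edgeR adjusted p = 7.43e-05). DLST, the second component of that complex, measured 63.9 and 80.4 CPM against 105 and 108 CPM (0.56, edgeR adjusted p = 0.00171). SUCLG2, a subunit of succinyl-CoA synthetase, fell by 0.94 on the log2 scale. OGDH and DLST, components of one enzyme, therefore had values on opposite sides of 0.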

How the data were processed

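Total RNA of SY5Y cells, 2 DMSO and 2 SGSS05-NS libraries, was sequenced as stranded paired reads after removal of ribosomal RNA, per the study's methods, while the labels name another TruSeq kit. The authors used Trimmomatic 0.30 for trimming and STAR 2.4.2a for alignment to hg19, and deposited the raw fragment counts of each GENCODE 19 gene, not normalized. Their own test used edgeR 3.10.5. Fragments mapping to several places (14.3% to 15.4%) are not in the gene counts, nor are the summary rows.

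The reverse-strand column, count column 4 of each file, was used, since the opposite strand held 4.64% to 5.05% of fragments assigned on either strand. Names and GRCh37 positions came by identifier from GENCODE 44 (2282 of 57820 identifiers, with 4.52% of counts, had no entry) and older symbols from RefSeq, which gave 18 members. Promoters came from RefSeq on GRCh38.p14.

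Tests were made in R 4.3.3 with edgeR 4.0.16. Low counts were removed with filterByExpr, libraries were scaled by TMM, and the quasi-likelihood p-values were adjusted after Benjamini and Hochberg over 16468 genes, with thresholds of 0.001 and 0.05. Intervals are 2 standard errors to either side. The fit was tested on simulated data. RPKM used the length of the annotated canonical transcript. Lists and complexes are described by counts and medians with no test. Named genes were the called members, the 3 members of each complex with the smallest p-values, the 2 of each complex with the highest RPKM, tissue or copy isoforms and the 3 genes of each related list with the smallest p-values. Genes named beyond these were picked with their values in view. The members and lists were chosen with earlier results of these data known. Of 45 assembly factors 44 were matched. The result of 1 member is not reported here.

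Replicates were not one library deposited again: a chi-square test of their counts gave 8.76 for DMSO and 11.8 for SGSS05-NS per degree of freedom. The labels do not say that a replicate number marks a shared culture or day, so p-values measure the spread between these libraries. Alternatives were the likelihood ratio test, DESeq2 1.42.0, limma voom (limma 3.58.1), other scalings, filters and thresholds, unstranded counts, a replicate block and each library left out.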

Additional observations from a re-analysis of the deposited data

How the results depend on the processing

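The members' median log2 fold change stayed below 0 in each alternative fit, from -0.142 to -0.289, while the median of all genes was 0.0426 with library size only, 0.0698 with no filter, 0.0596 with upper-quartile scaling and between 0.00574 and 0.0238 with single libraries left out. The count of members lower at 0.001, 4 in the report, was 15 with the likelihood ratio test, 16 with no filter on low counts, 9 with the replicate block, 1 with library size only, 18 at a threshold of 0.01, 31 at 0.05 (with 3 higher) and between 3 and 7 with single libraries left out. The 3 are without DMSO replicate 1 and the 7 without DMSO replicate 2. In fits without a library the lone library of a condition is assumed to vary like the other condition. The count of all genes lower at 0.001 moved as well, from 1341 in the report to between 997 and 2570 over the other tests, scalings and filters. The counts of members, here and by complex below, are not to be read apart from it. The cause of these moves was not tested.

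By complex, complex I had 8 members lower with the likelihood ratio test and with no filter, 3 with DESeq2 and with unstranded counts, 4 with the replicate block, 0 with library size only, 10 at 0.01 and 17 at 0.05 (1 higher), and 1 to 4 with single libraries left out, where its median ran from -0.302 to -0.149. Complex V had 5 lower with the likelihood ratio test, with no filter, with the replicate block and at 0.01, 8 at 0.05 and 1 with library size only. Complex III had 1 lower with the likelihood ratio test, 2 with no filter and at 0.01, and 4 at 0.05 (1 higher), and its median ran from -0.257 to -0.0638 with single libraries left out. Complex II had 1 lower with the likelihood ratio test, with no filter and at 0.01 and 0.05, and 1 higher at 0.05. Its median was 0.0595 with upper-quartile scaling and -0.0664 to 0.0646 with single libraries left out, the lower value without DMSO replicate 2, so its sign was not stable. Complex IV had 1 lower at 0.05. Restricting the count to members with no pseudogene and no same-strand overlap, an alternative chosen after seeing the data, left 1 member lower, 0 in complex I and 1 in complex V. The medians were -0.336 over all, -0.305 in complex I, -0.368 in complex III, -0.0103 in complex IV and -0.541 in complex V. These rest on few genes: complex IV on COX7A2L alone, complex III on UQCRC1, UQCRHL and UQCRQ, and complex V on ATP5D, ATP5I and ATP5S.

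Among the related lists, assembly factors had 7 lower and 3 higher with the likelihood ratio test, 8 and 2 with no filter, 2 and 0 with library size only, 2 and 2 with upper-quartile scaling, 9 and 4 at 0.01 and 16 and 6 at 0.05, with 2 higher under the replicate block, 0 higher with unstranded counts, and 2 to 5 lower and 0 to 1 higher with single libraries left out. Mitochondrially encoded subunits had 3 higher with unstranded counts, 2 with library size only and 8 with no filter and at 0.05, and their median was 0.418, 0.539, 0.479 and 0.554 with unstranded counts, library size only, no filter and upper-quartile scaling, and 0.435 to 0.5 with single libraries left out. The citrate cycle list had 1 higher with DESeq2, the likelihood ratio test, no filter, the replicate block, upper-quartile scaling and at 0.01 and 0.05, and 4 lower at 0.01 and 0.05. The regulators had 1 lower with the likelihood ratio test and no filter, 2 at 0.01, 3 at 0.05 (3 higher), and a median of 0.072 with upper-quartile scaling and of -0.0492 (without DMSO replicate 1) to 0.0548 with single libraries left out. Over all genes, 2022 rose and 2267 fell with the likelihood ratio test, 2034 and 2570 with no filter, 2321 and 2616 at 0.01 and 3728 and 3903 at 0.05, and 1759 rose with the replicate block. Of single genes near 0, COX4I1 changed sign with library size only (0.0092), upper-quartile scaling (0.0279) and without DMSO replicate 1 (0.0129) or SGSS05-NS replicate 1 (0.069, lowest -0.123 with single libraries left out), COX7A2 (0.0157, lowest -0.260) and NDUFA4 (0.0301, lowest -0.225) without SGSS05-NS replicate 1, and NDUFA4L2 with unstranded counts (0.659), library size only (0.000523), limma voom (0.027), upper-quartile scaling (0.0189) and without DMSO replicate 1 (0.468, lowest -0.408) or SGSS05-NS replicate 1 (0.0953).

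Deviations of libraries with the same replicate number were correlated at r = 0.0526 in each of 2 pairs, under the 0.1 that would pair them, so the replicate block, with 9 members lower, is given here only. With 2 libraries a condition, the median standard error of a member was 0.101 on the log2 scale. A difference had to be well above a standard error to be called one gene at a time. The smallest called at 0.05 was -0.24 for NDUFS5 (edgeR adjusted p = 0.0458), while COX6C at -0.22 was not called (edgeR adjusted p = 0.0646).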
